A study of Mus musculus with 14 samples.

Results

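Axon guidance ligands and receptors were followed in RNA-seq of the dorsal hippocampus of mice. The set holds 66 genes: every row of both count tables whose name belongs to the semaphorins of classes 3 to 7, the plexins, the neuropilins, the slits, the robos, the ephrins, the Eph receptors, the Unc5 receptors, Dcc or Ntn1. These are 66 of 26570 genes in the table of the basal experiment and 66 of 25933 genes in that of the learning experiment, and 66 of 66 passed the filter on low counts in both. The rule uses names and no measured value. By role they are 20 semaphorins, 9 plexins, 2 neuropilins, 3 slits, 4 robos, 8 ephrins, 14 Eph receptors, netrin-1 (Ntn1) and its 5 receptors Dcc, Unc5a, Unc5b, Unc5c and Unc5d.

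All 14 libraries came from male C57BL6 mice aged 8 months. The methods give the background of the THY-Tau22 line as C57BL6/J. In the basal experiment, untrained WT mice (n = 3) were compared with untrained THY-Tau22 mice (n = 2), which carry a mutated human Tau transgene driven in neurons by a Thy1 promoter. In the learning experiment, WT VEH_HC (n = 3) were WT mice given saline and left in their home cage, WT VEH (n = 2) were WT mice given saline and trained in the Morris water maze, TAU VEH (n = 2) were trained THY-Tau22 mice given CSP, the carbon nanospheres that carry the drug, and TAU MOL (n = 2) were trained THY-Tau22 mice given CSP-TTK21, an activator of the histone acetyltransferases CBP and p300. TAU VEH and WT VEH thus differ in genotype and in what was injected, and the effects of both cannot be told apart. WT VEH libraries enter 3 of the learning comparisons and TAU VEH libraries 2, so these comparisons are not independent of each other. The methods state that libraries from a single litter were removed from the learning experiment after their values had been seen. Libraries labelled as replicates of a group were treated as replicates, and all p-values measure the spread between these libraries. Groups this small can fail to overlap without a change. The share of all genes that did so was not counted, so that a lack of overlap is only a description below.

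Axon guidance cues steer growing axons by attraction or repulsion, and many of them stay expressed in the adult hippocampus, where they act on dendritic spines and synapses. Secreted class 3 semaphorins bind neuropilins, which signal through A-type plexins, whereas membrane-bound semaphorins mostly bind plexins directly. Slits bind robos, netrin-1 binds Dcc and the Unc5 receptors, and ephrins and Eph receptors signal in both directions between touching cells.

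Whole-tissue markers were read first. Counts on genes ran from 24693713 to 52180305 per library, and the 66 genes took from 0.372% to 0.521% of them. Markers of CA1 neurons (5 genes, summed level 557 to 1110 CPM, a library's counts brought to a common scaled total) and of dentate granule cells (5 genes, 348 to 585 CPM) were detected in every library. Markers of the choroid plexus (14 genes) were present too, none of them at 0 in any library. Their summed level was 79.8 to 238 CPM in WT VEH_HC, 1590 to 2460 CPM in WT VEH, 241 to 288 CPM in TAU VEH and 718 to 785 CPM in TAU MOL. In the basal experiment it was 274 to 442 CPM in WT libraries, and 405 and 1330 CPM in the THY-Tau22 libraries. In whole tissue, fewer cells of a type and less RNA per cell cannot be told apart.

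Because CSP-TTK21 acts on CBP, the coactivator that binds CREB, promoters were searched for the core of the CREB response element, TGACG, and for its reverse complement CGTCA. RefSeq promoters (build GRCm38.p6, 250 bases before to 50 bases after the start) matched 56 of the 66 genes with 72 promoters. No match was found for Dcc, Efnb3, Ntn1, Plxna1, Plxna4, Sema3b, Sema3f, Sema6a, Slit1 and Unc5d. The 4 promoters shown belong to the genes with the largest changes in TAU VEH compared with WT VEH that had a single promoter in the table: Ephb3 and Plxnd1 were lower, Sema3d and Slit2 were higher. Capitals mark the core motif on either strand, and each run reads 5′ to 3′ on the strand of the gene. They lie at chr16:21204545-21204844 (Ephb3, plus strand), chr6:115994956-115995255 (Plxnd1, minus strand), chr5:12382916-12383215 (Sema3d, plus strand) and chr5:47982905-47983204 (Slit2, plus strand).
Ephb3: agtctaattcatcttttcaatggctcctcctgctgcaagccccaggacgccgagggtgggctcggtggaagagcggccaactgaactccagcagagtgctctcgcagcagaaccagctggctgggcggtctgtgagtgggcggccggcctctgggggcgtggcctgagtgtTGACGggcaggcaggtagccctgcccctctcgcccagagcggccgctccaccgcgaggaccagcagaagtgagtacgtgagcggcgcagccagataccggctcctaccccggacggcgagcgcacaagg
Plxnd1: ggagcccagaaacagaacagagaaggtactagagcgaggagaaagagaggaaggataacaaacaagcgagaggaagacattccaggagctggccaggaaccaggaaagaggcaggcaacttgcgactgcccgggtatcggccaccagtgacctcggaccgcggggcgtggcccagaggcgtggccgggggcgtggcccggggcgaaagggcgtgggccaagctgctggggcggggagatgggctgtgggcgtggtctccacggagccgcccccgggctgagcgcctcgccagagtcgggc
Sema3d: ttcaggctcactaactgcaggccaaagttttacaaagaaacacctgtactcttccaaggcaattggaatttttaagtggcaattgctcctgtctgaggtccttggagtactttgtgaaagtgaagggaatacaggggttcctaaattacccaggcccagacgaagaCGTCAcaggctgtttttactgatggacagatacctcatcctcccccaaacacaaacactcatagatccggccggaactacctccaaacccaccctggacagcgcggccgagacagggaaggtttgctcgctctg
Slit2: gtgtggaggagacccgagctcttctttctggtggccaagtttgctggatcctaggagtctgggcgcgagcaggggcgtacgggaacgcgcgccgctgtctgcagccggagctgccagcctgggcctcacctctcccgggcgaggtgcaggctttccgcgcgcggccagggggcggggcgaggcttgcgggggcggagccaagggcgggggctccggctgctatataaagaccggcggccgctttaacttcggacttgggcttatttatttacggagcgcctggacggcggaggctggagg
The motif stood once in the promoters of Ephb3 and Sema3d and was not in these windows of Plxnd1 and Slit2. Among genes that changed between TAU VEH and WT VEH, it was in 4 of 9 promoters (44.4%) of those that were higher and in 3 of 17 (17.6%) of those that were lower, which is given as a description without a test. Over the whole set, 10 of 72 promoters (13.9%) held the core motif, against 20.8% of all 32851 promoters in the table. They belong to Efnb1, Efnb2, Epha2, Epha4, Ephb1, Ephb3, Sema3d, Sema5a, Sema7a and Unc5c. The palindrome TGACGTCA, which contains the core motif on both strands, was in 1 of the 72 (1.39%) and in 1.79% of all promoters. Promoters of the axon guidance genes were rich in GC, with a median of 64.2% against 52.7% over the table.

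Levels were compared between genes as CPM per kb of exon, averaged over the 14 libraries. Efnb3, a transmembrane ephrin, had the highest level of the set (76.3 CPM per kb, 45.6 to 98.4 over the libraries), followed by the membrane-anchored semaphorin Sema7a (68.4), the ligand Slit1 (60.1), the ephrin receptor Epha4 (59.4), the netrin receptor Unc5a (57) and Sema6b (52.5). The ranges of these 6 genes overlapped, and their order was not tested. The next genes were the plexin Plxna1, which transduces class 3 semaphorin signals (31 CPM per kb), and the ephrin Efna3 (27.4). In the slit and robo family, Slit1 was followed by Slit3 (11.2) and the receptor Robo1 (7.08), and among netrin receptors Unc5a was followed by Unc5b (12.5) and Unc5c (3.6). Netrin-1 itself stood at 1.96 CPM per kb and its attractive receptor Dcc at 1.36.

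**Figure D1:**
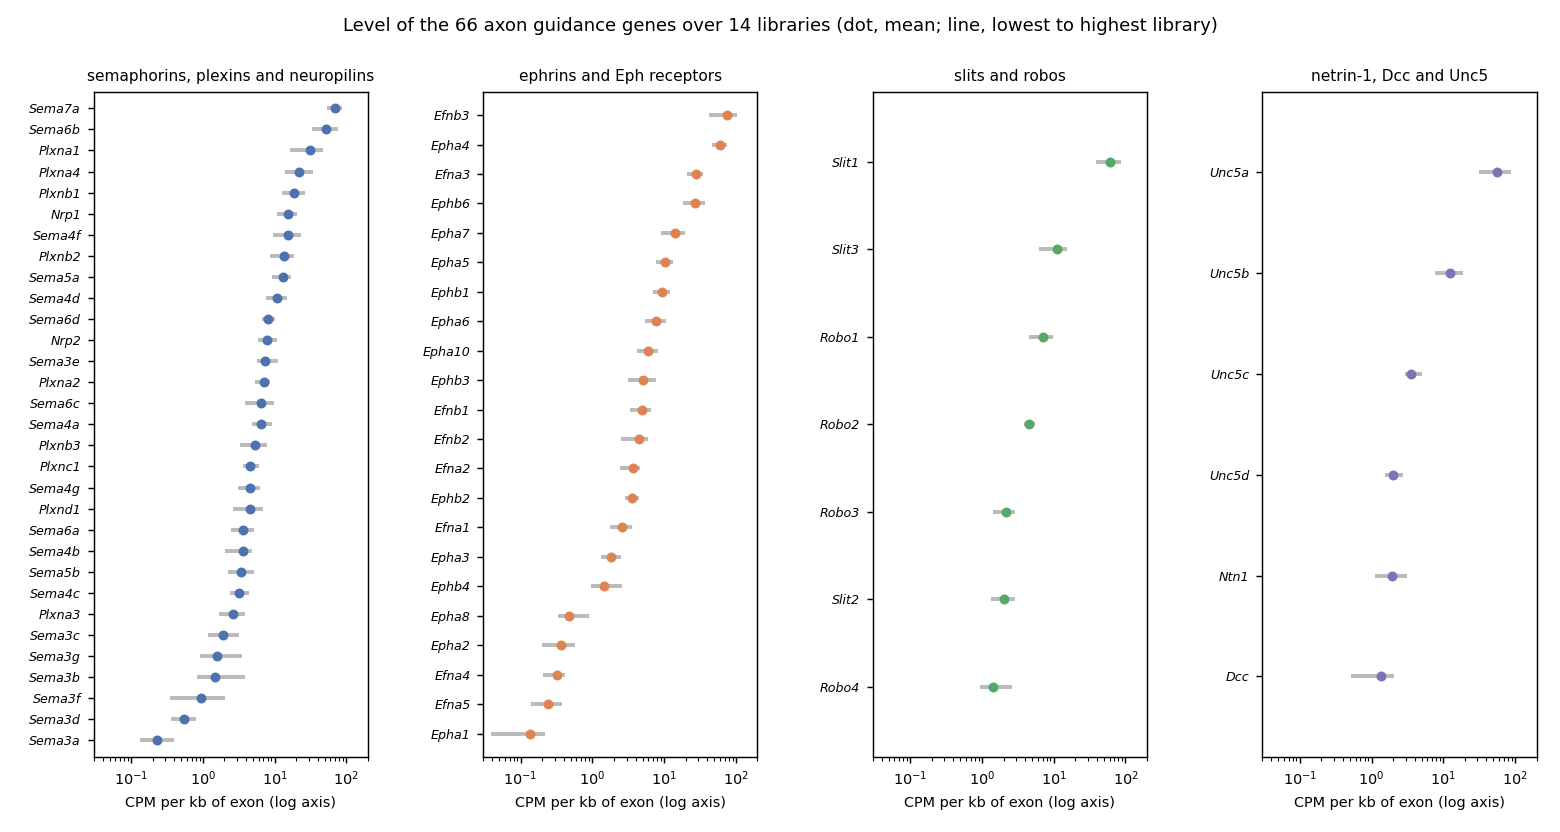
Level of each of the 66 genes in CPM per kb of exon on a log axis, in 4 panels by family. Dots are means over the 14 libraries and lines run from the lowest to the highest library. The means spread from 0.137 (Epha1) to 76.3 (Efnb3).

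The lowest levels were those of Epha1 (0.137 CPM per kb, 5 to 30 counts per library), Sema3a (0.233), Efna5 (0.243), Efna4 (0.323, 14 to 24 counts), Epha2 (0.362) and Epha8 (0.476). Counting error is largest for these genes, and none of the 6 passed in edgeR as fitted here, although Epha8 and Sema3a each passed in a comparison under other settings. Secreted class 3 semaphorins ran from 0.233 (Sema3a) to 7.44 CPM per kb (Sema3e), and the class 6 semaphorins, which span the membrane, from 3.64 (Sema6a) to 52.5 (Sema6b), so that the classes overlapped. Reads were not separated by strand, and exons of 14 genes overlap another annotated gene, so that their values are uncertain. Among them are Unc5a with Hk3, Epha1 with Zyx, Ephb4 with Zan, and Efna5 with another entry of the same name.

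The basal comparison asked whether untrained THY-Tau22 mice differed from WT mice. No member of the set passed edgeR's quasi-likelihood test (limits: 0.05 for the adjusted p and 0.2 for the size of the log2 fold change), and 0 did so in DESeq2, where 0.0245% and 0.245% of all 16324 genes passed. At an unadjusted p under 0.05 there were 5 of 66 (7.58%), 4 higher and 1 lower in THY-Tau22 mice, against 4.92% of all genes. The median log2 fold change of the set was 0.034, and that of all genes was -0.007. On simulated data edgeR recovered 4% of log2 changes of 0.5 in this comparison, so that most changes of that size would be missed.

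Epha6, an ephrin-A receptor, had 42.1, 30.2 and 35 CPM in WT and 42.9 and 53.4 CPM in THY-Tau22 libraries, a log2 fold change of 0.43 (SE 0.16, adjusted p = 0.90). Sema3b, a secreted semaphorin, had 4.62, 4.74 and 3.99 CPM in WT and 6.45 and 5.76 CPM in THY-Tau22 libraries (log2 fold change 0.46, SE 0.17, adjusted p = 0.90). In both genes the THY-Tau22 libraries lay above those of WT, by differences that did not pass. For Sema6a, a transmembrane semaphorin, THY-Tau22 libraries had 25.9 and 23.3 CPM, below the 36.9, 26.3 and 33.6 CPM of WT (log2 fold change -0.39, SE 0.15, adjusted p = 0.90). The 2 THY-Tau22 libraries differed from each other in how counts followed the GC content of the exons, with a Spearman's rho over the 66 genes of 0.50 and -0.67 between GC content and the log2 ratio to the mean of the 5 basal libraries. It was 0.04 to 0.21 in WT. At an unadjusted p under 0.05, 10 of the 14 choroid plexus markers were higher and 5 of 6 oligodendrocyte markers lower in THY-Tau22 mice (summed level 6550 to 6860 CPM against 7050 to 11700 CPM in WT). The part of either in these differences was not tested.

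Training was examined by comparing WT VEH with WT VEH_HC. In trained mice 10 axon guidance genes changed (15.2%, against 8.4% of 16820 genes tested), of which 2 rose (5.35% of all genes rose) and 8 fell (3.05% of all genes fell). The 2 that rose were the secreted semaphorins Sema3b and Sema3f. The 8 that fell were the ligands Sema4c, Sema5a and Slit2 and the receptors Nrp2, Plxna4, Ephb6, Robo1 and Dcc. The set's median log2 fold change was -0.075, and that over all genes -0.003.

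Sema3b (chr9:107500005-107511560 of mm9, minus strand) had 3.71, 5.48 and 4.25 CPM in WT VEH_HC libraries and 15.4 and 11 CPM in WT VEH libraries. Both trained libraries exceeded every home cage library, and Sema3b was 2.94-fold higher (log2 fold change 1.55, SE 0.17, adjusted p = 0.00077). Sema3f, which lies on the same strand nearby (chr9:107583833-107612806), had 2.95, 3.89 and 2.77 CPM in the home cage and 6.67 and 5.06 CPM after training. It was 1.83-fold higher without overlap between the groups (log2 fold change 0.87, SE 0.19, adjusted p = 0.022). Sema3f rests on 34 to 276 counts per library and Sema3b on 123 to 638. All 14 choroid plexus markers were higher in WT VEH as well, by a median of 3.5 on the log2 scale. Of 5 dentate granule cell markers 1 was lower in WT VEH (summed level 371 to 393 CPM against 422 to 585 CPM), of 5 microglia markers 1 was higher, and 2 of 4 neuron markers were lower at an unadjusted p under 0.05. At that limit 2 of 5 astrocyte markers were higher, as was 1 of 5 for thalamus and 1 of 5 for fibroblasts with meninges. For neocortex 1 of 5 was lower. The part of these markers in the changes with training was not tested. Other semaphorins of class 3 did not pass in edgeR, where Sema3c was nearest (log2 fold change 0.41, adjusted p = 0.076). DESeq2 called 15 of the 63 members to which it gave an adjusted p (14.3% of 12907 such genes), Sema3c among them.

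**Figure D2:**
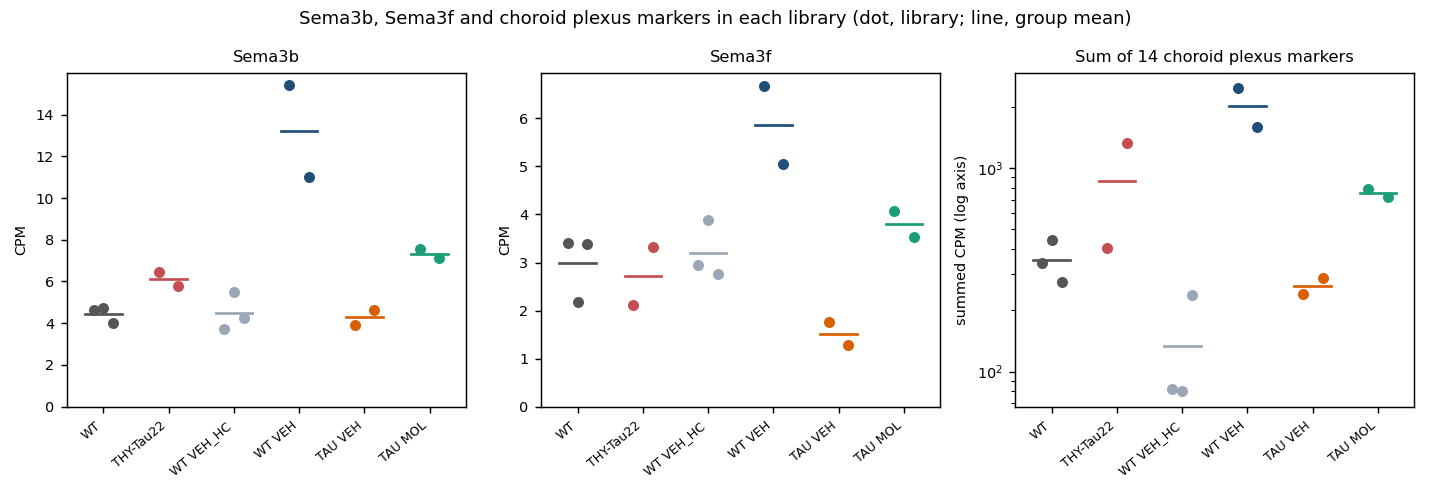
Sema3b (left) and Sema3f (middle) in CPM and the summed CPM of 14 choroid plexus markers (right, log axis) in each of the 14 libraries, by group. Dots are libraries and lines group means. WT VEH libraries were highest in all 3 panels, with 15.4 and 11 CPM for Sema3b.

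Slit2, a repellent ligand of the robos, had 35.8, 37.1 and 32 CPM in WT VEH_HC and 24.8 and 25.3 CPM in WT VEH. All trained libraries were below the home cage libraries (log2 fold change -0.48, SE 0.08, adjusted p = 0.0098). Sema4c, a membrane-bound ligand of B-type plexins, had 18.7, 18.2 and 19.1 CPM against 14 and 13.4 CPM (-0.45, SE 0.08, adjusted p = 0.0094). Sema5a, another transmembrane semaphorin, had 145, 180 and 168 CPM against 124 and 119 CPM (-0.44, SE 0.11, adjusted p = 0.038). For all 3 ligands the trained libraries lay below every home cage library.

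Receptors that fell included Plxna4, a co-receptor of class 3 semaphorins, with 348, 398 and 367 CPM in the home cage and 283 and 268 CPM after training (-0.43, SE 0.09, adjusted p = 0.021). The neuropilin Nrp2 had 89.1, 95.3 and 83 CPM against 67.3 and 71.9 CPM (-0.36, SE 0.07, adjusted p = 0.02), whereas its relative Nrp1 did not pass (0.13, adjusted p = 0.28). Decreases were smaller for Ephb6, an Eph receptor without kinase activity (131, 130 and 123 against 104 and 110 CPM, -0.25). Robo1, a slit receptor, had 88.2, 83.9 and 75.1 against 65.9 and 68.6 CPM (-0.29, adjusted p = 0.048), and Dcc had 13, 14 and 12.8 against 9.93 and 11.2 CPM (-0.33). In all 5 receptors the groups did not overlap. The count of 10 was 1 without WT VEH replicate 1 (0.422% of all genes passed), 2 without WT VEH replicate 2 (1.63%), 6 without WT VEH_HC replicate 1 (3.67%) and 15 without WT VEH_HC replicate 3 (16.7%). After correction of each library for GC content and exon length 6 passed (4.51% of all genes did), 3 higher (Sema3b, Sema3f and Plxnb2) and 3 lower (Slit2, Sema4c and Nrp2), while Dcc (-0.31), Robo1 (-0.25), Sema5a (-0.40), Plxna4 (-0.29) and Ephb6 (-0.18) did not, with adjusted p from 0.059 to 0.12. With the choroid plexus level as a covariate 0 passed, as did 0% of all genes. That level separated the groups (79.8 to 238 CPM in WT VEH_HC, 1590 to 2460 CPM in WT VEH). The fit thus tells the covariate and the group apart poorly, whatever the source of the changes. In this fit, log2 fold changes of Slit2 (0.06), Nrp2 (0.14), Robo1 (0.21) and Ephb6 (0.01) turned positive. Those of Sema3b (1.26), Sema3f (1.26), Sema4c (-0.65), Sema5a (-0.36), Plxna4 (-0.26) and Dcc (-0.07) kept their sign.

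The comparison of TAU VEH with WT VEH asked how trained THY-Tau22 mice differed from trained WT mice. Of the 66 genes, 27 changed (40.9%), against 14.4% of all 16820 genes. In TAU VEH 10 were higher (3.61% of all genes were) and 17 were lower (10.8% of all genes were), with a median log2 fold change of -0.157 in the set and 0.004 over all genes. This split depended on scaling: when libraries were scaled by their totals without TMM factors 28 passed (21.4% of all genes did), 18 higher and 10 lower, and the median of all genes moved to 0.151. By family, 14 of 31 semaphorins, plexins and neuropilins changed (4 higher, 10 lower), 9 of 22 ephrins and Eph receptors (3 higher, 6 lower), 3 of 6 of the netrin family (2 higher, 1 lower) and 1 of 7 slits and robos. Among receptors, all 4 plexins that changed were lower (Plxna1, Plxnb1, Plxnb2 and Plxnd1), and all 3 ephrins that changed were lower (Efna3, Efnb2 and Efnb3). With scaling by totals the plexins split, since Plxna1, Plxnb2 and Plxnd1 were lower and Plxna2 and Plxnc1 higher, and Efnb2 was the 1 ephrin that passed.

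Sema3f and Sema3b showed the largest decreases. Sema3f had 6.67 and 5.06 CPM in WT VEH and 1.76 and 1.28 CPM in TAU VEH, a 3.76-fold lower level (log2 fold change -1.91, SE 0.23, adjusted p = 0.001). Sema3b had 15.4 and 11 CPM in WT VEH and 3.91 and 4.64 CPM in TAU VEH, 3.12-fold lower (-1.64, SE 0.20, adjusted p = 0.001). Neither gene overlapped between the groups. TAU VEH levels of Sema3b lay in the range of WT VEH_HC libraries, 3.71 to 5.48 CPM, and those of Sema3f below it, 2.77 to 3.89 CPM. All 14 choroid plexus markers were also lower in TAU VEH, with a median log2 fold change of -2.515. In the basal experiment the THY-Tau22 library with the higher choroid plexus level (1330 CPM) had 5.76 CPM of Sema3b and 3.33 CPM of Sema3f, and the other (405 CPM) had 6.45 and 2.11 CPM. Other marker lists moved between TAU VEH and WT VEH as well. Of 5 CA1 markers 3 were lower in TAU VEH (summed level 615 to 650 CPM against 1020 to 1100 CPM), of 5 neocortex markers 2 were lower, and of 5 astrocyte markers 2 were higher. A single marker was lower in each of the lists for oligodendrocyte precursors, microglia, fibroblasts with meninges, and neurons. Their part in the changes of the axon guidance genes was not tested.

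Plxnd1, the receptor of Sema3e, had 43.3 and 40.7 CPM in WT VEH and 24.5 and 26.7 CPM in TAU VEH (-0.72, SE 0.09, adjusted p = 0.001). Plxna1 had 385 and 387 CPM against 255 and 266 CPM (-0.57, SE 0.07, adjusted p = 0.001). Ephb3, a receptor of B-type ephrins, had 45.2 and 42.3 CPM against 23 and 28.9 CPM (-0.76, SE 0.10, adjusted p = 0.001). These receptors were 1.65-, 1.48- and 1.7-fold lower, and their libraries did not overlap. Sema6c, a transmembrane semaphorin, had 51 and 46.9 CPM against 30.3 and 27.9 CPM (-0.75, SE 0.09, adjusted p = 0.001). The other decreases that passed ran from -0.27 to -0.51 on the log2 scale and were those of Sema4g, Sema6b, Sema7a, Plxnb1, Plxnb2, Efna3, Efnb2, Efnb3, Epha10, Ephb6 and Unc5a.

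Increases were more modest. Dcc had 9.93 and 11.2 CPM in WT VEH and 14.7 and 15.4 CPM in TAU VEH (0.51, SE 0.10, adjusted p = 0.0066), and the repulsive netrin receptor Unc5c had 38.6 and 40.3 CPM against 52.1 and 58.4 CPM (0.48, SE 0.09, adjusted p = 0.0049). Slit2 had 24.8 and 25.3 CPM against 37.4 and 33 CPM (0.50, SE 0.09, adjusted p = 0.0038). Each was about 1.4-fold higher. Unc5a, in contrast, was lower in TAU VEH, with 285 and 305 CPM against 207 and 217 CPM (-0.48, SE 0.10, adjusted p = 0.0065), so that netrin receptors changed in both directions before any correction for GC content. After correction for GC content and exon length Unc5a stood at -0.02 (adjusted p = 0.94 in edgeR). Dcc was then at 0.4 and Unc5c at 0.25, and none of these receptors passed.

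Sema5a rose as well, from 124 and 119 CPM to 183 and 157 CPM (0.49, SE 0.12, adjusted p = 0.02). Epha3, an ephrin-A receptor, had 9.52 and 8.66 CPM against 13.1 and 11.1 CPM (0.42, SE 0.13, adjusted p = 0.046). Sema3d, a secreted semaphorin, had 2.9 and 3.13 CPM against 4.03 and 4.6 CPM (0.51, SE 0.15, adjusted p = 0.048). The remaining increases were those of Sema3e (0.32), Nrp1 (0.29), Epha4 (0.31) and Epha6 (0.32). Sema3e, the ligand of Plxnd1, thus differed in the direction opposite to its receptor. WT VEH libraries serve both comparisons, so that Sema3b and Sema3f (higher in WT VEH than in WT VEH_HC) and Slit2, Dcc and Sema5a (lower) have opposite signs in the comparison with TAU VEH without being independent evidence. Ephb6 also changed in both but kept its direction. It was lower in WT VEH (104 and 110 CPM) than in WT VEH_HC, and lower again in TAU VEH (86.9 and 91.3 CPM).

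**Figure D3:**
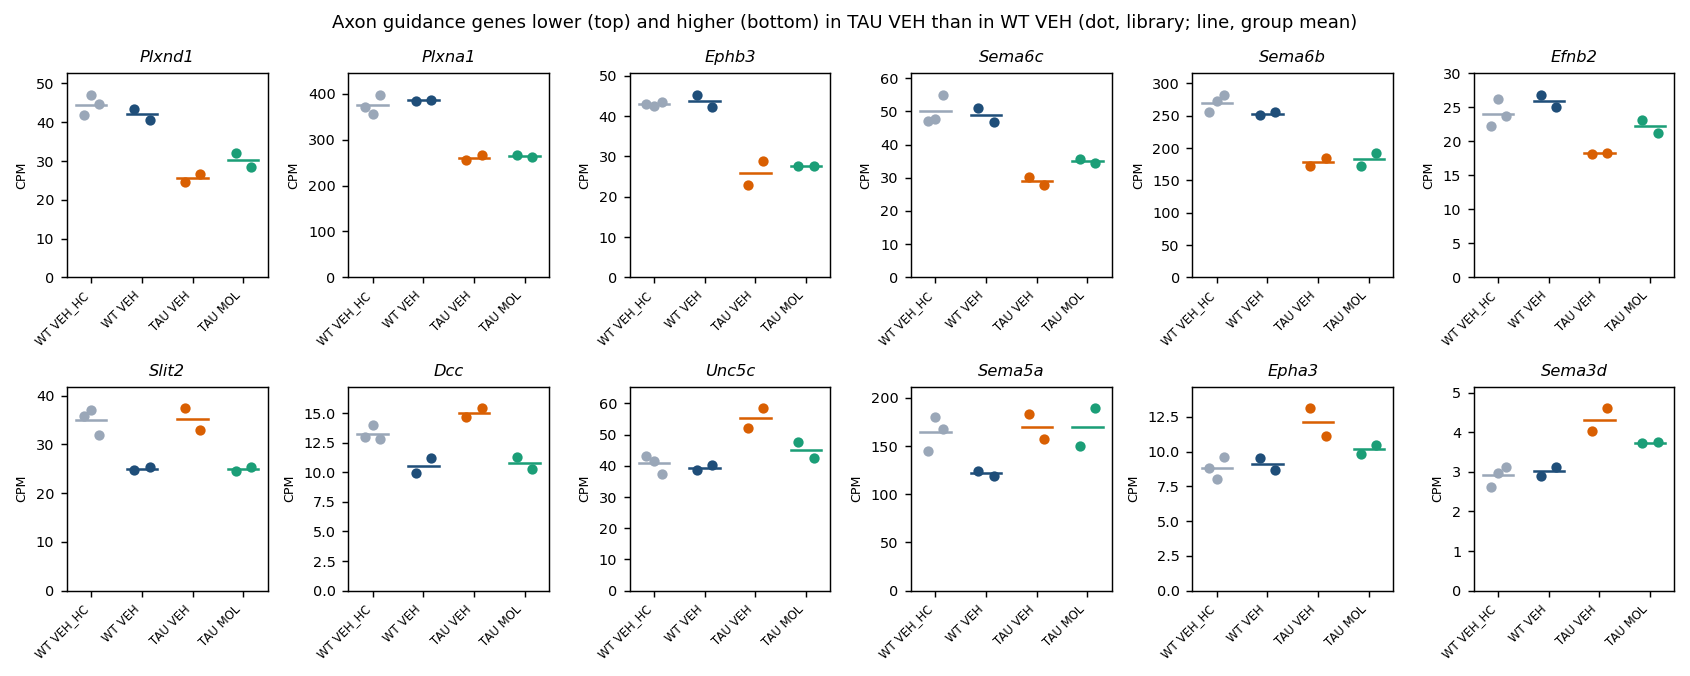
CPM of 12 axon guidance genes in the 9 libraries of the learning experiment, 6 that were lower (top row) and 6 that were higher (bottom row) in TAU VEH than in WT VEH. Dots are libraries and lines group means. For Plxna1, both THY-Tau22 groups (255 to 267 CPM) lay below both WT groups (356 to 397 CPM).

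Direction and GC content went together in this comparison. Over the 66 genes, Spearman's rho between exon GC content and log2 fold change was -0.67, and -0.52 over all genes, which share the same libraries. The 10 genes that were higher had at most 46.8% GC (median 44.1%), and the 17 that were lower had at least 50.4% (median 58%). Within single libraries, the rho of GC content with each gene's log2 ratio to its mean over the 9 learning libraries was, over the 66 genes, -0.69 and -0.61 in TAU VEH, -0.46 and -0.40 in TAU MOL, 0.47 and 0.51 in WT VEH and 0.33 to 0.58 in WT VEH_HC. After correction of each library for GC content and exon length, 5 of the 66 genes passed (2.85% of all genes did), all of them lower: Sema3f (-1.6), Sema3b (-1.38), Efnb2 (-0.51), Ephb3 (-0.43) and Plxnd1 (-0.37). None of the 10 increases passed then, with Dcc at 0.40 and Slit2 at 0.29. The other decreases did not pass either. They ran from -0.33 (Sema6c) and -0.32 (Plxna1) over -0.05 (Sema6b), -0.03 (Sema7a) and -0.02 (Unc5a) to 0.08 (Ephb6), which changed sign.

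**Figure D4:**
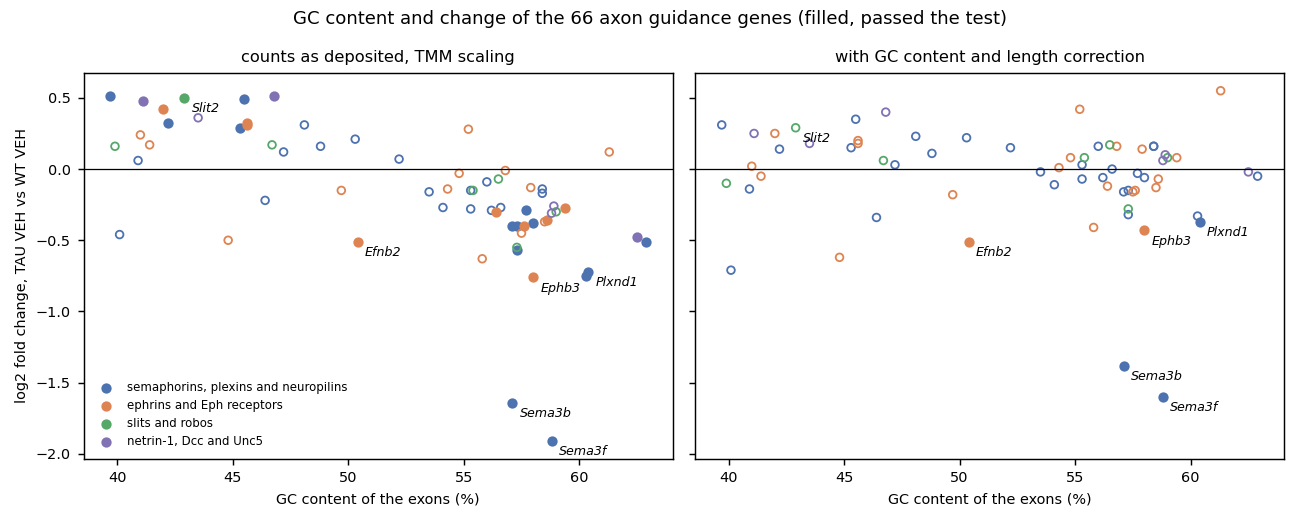
Log2 fold change between TAU VEH and WT VEH of the 66 genes against the GC content of their exons (percent), from the counts as deposited (left) and after correction for GC content and length (right). Filled points passed the test, 27 on the left and 5 on the right, and colours mark the 4 families.

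Single libraries also bore on this count, which was 12 and 16 without WT VEH replicates 1 and 2 (7.07% and 7.36% of all genes passed), and 12 and 13 without TAU VEH replicates 1 and 2 (5.29% and 7.17%). With the choroid plexus level as a covariate 0 of the 66 genes and 0% of all genes passed, while log2 fold changes of Sema3f and Sema3b were then -2.18 and -1.45. That level also separated these groups (241 to 288 CPM in TAU VEH, 1590 to 2460 CPM in WT VEH), so the fit tells covariate and group apart poorly.

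The effect of the drug was read from TAU MOL compared with TAU VEH. In edgeR 0 of the 66 genes passed, as did 0% of all genes, and 19 (28.8%) had an unadjusted p under 0.05, 11 higher and 8 lower in TAU MOL, against 6.33% of all genes. DESeq2 called 2, Sema3f and Slit2, where 0.469% of the genes it tested passed. The median log2 fold change was 0.037 in the set and 0.009 over all genes.

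Sema3f had 1.76 and 1.28 CPM in TAU VEH and 4.07 and 3.54 CPM in TAU MOL (1.29, SE 0.23, adjusted p = 0.21 in edgeR, and from 4.6e-07 to 1 over 12 alternatives). Slit2 had 37.4 and 33 CPM against 24.5 and 25.3 CPM (-0.51, SE 0.09, adjusted p = 0.21, and from 7.1e-05 to 1). Dcc had 14.7 and 15.4 CPM against 11.3 and 10.3 CPM (-0.48, SE 0.10, adjusted p = 0.25). In these 3 genes, which were named for their low p, the groups did not overlap. TAU MOL values of Slit2 (24.5 and 25.3 CPM) stood beside those of WT VEH (24.8 and 25.3 CPM). Sema3b had 7.55 and 7.13 CPM in TAU MOL, between the values of TAU VEH and WT VEH (0.79, SE 0.20, adjusted p = 0.35). Of the 14 choroid plexus markers, 13 had an unadjusted p under 0.05 and were higher in TAU MOL, with a median log2 fold change of 1.167. Exon GC content and log2 fold change had a rho of 0.50 over the 66 genes and 0.23 over all genes. Of 5 CA1 markers 3 were higher at an unadjusted p under 0.05 (summed level 885 to 887 CPM in TAU MOL against 615 to 650 CPM in TAU VEH). At the same limit, 2 of 5 neocortex and 2 of 5 thalamus markers were higher, and 2 of 5 CA2 and CA3 and 2 of 4 neuron markers were lower. The part of these values in the differences was not tested.

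Between TAU MOL and WT VEH, 9 of the 66 genes changed (13.6%, against 5.63% of all genes). Sema5a was higher in TAU MOL (0.612% of all genes were), and Sema3b, Sema6b, Sema6c, Plxna1, Plxnd1, Ephb3, Slit1 and Unc5a were lower (5.02% of all genes were). Median log2 fold changes were -0.068 in the set and 0.002 over all genes. With library size alone 8 passed (6.44% of all genes did), 2 higher and 6 lower, and the median of all genes moved to 0.123. Of 14 choroid plexus markers 9 were lower in TAU MOL than in WT VEH (median log2 fold change -1.394), of 5 CA2 and CA3 markers 2 were lower and of 5 CA1 markers 1 was lower. Of 5 endothelial markers 1 was lower (summed level 98.1 to 116 CPM against 137 to 146 CPM), as was 1 of 5 microglia markers, and 1 of 5 astrocyte markers was higher. The part of these markers in the changes was not tested. Plxna1 had 267 and 262 CPM in TAU MOL (log2 fold change to WT VEH -0.54, SE 0.07, adjusted p = 0.0099), Ephb3 27.5 and 27.6 CPM (-0.67, SE 0.10, adjusted p = 0.0099) and Plxnd1 32 and 28.4 CPM (-0.48, SE 0.09, adjusted p = 0.013). For all 3 receptors, the values of TAU MOL lay below both WT VEH libraries.

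Among ligands, Sema6b had 172 and 193 CPM in TAU MOL and 251 and 256 CPM in WT VEH (-0.47, SE 0.08, adjusted p = 0.01). Sema6c had 35.7 and 34.3 CPM (-0.48, SE 0.09, adjusted p = 0.014), Slit1 had 303 and 358 CPM against 416 and 424 CPM (-0.35, SE 0.09, adjusted p = 0.048), and Sema3b was lower with an SE of 0.19 (-0.85, adjusted p = 0.026). Unc5a had 202 and 235 CPM (-0.43, SE 0.10, adjusted p = 0.025), and Sema5a had 150 and 189 CPM (0.48, SE 0.12, adjusted p = 0.041). Except for Slit1, these genes also changed in TAU VEH compared with WT VEH, a comparison that shares its WT VEH libraries. The count was 0 without any 1 of the 4 libraries compared (WT VEH replicates 1 and 2, with 0.0231% of all genes for each, and TAU MOL replicates 1 and 2, with 0.0116% for each), and 0 after the correction for GC content and length, where 0.244% of all genes passed. Exon GC content and log2 fold change had a rho of -0.69 over the 66 genes and -0.47 over all genes. After the correction, log2 fold changes were -0.68 (Sema3b), -0.45 (Ephb3), -0.39 (Plxna1), -0.25 (Plxnd1), -0.2 (Sema6c) and 0.37 (Sema5a). Those of Sema6b (-0.16), Unc5a (-0.12) and Slit1 (-0.1) were smaller.

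**Figure D5:**
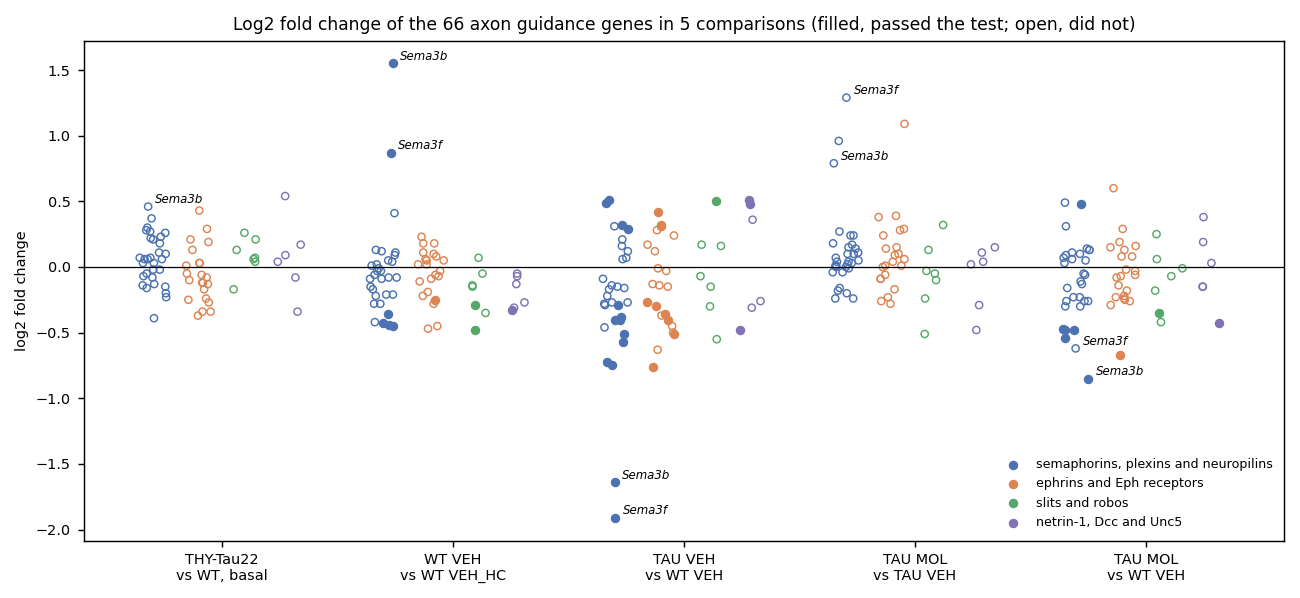
Log2 fold changes of the 66 genes in 5 comparisons, by family. Filled points passed the test (adjusted p and fold change limits) and open points did not: 0, 10, 27, 0 and 9 genes passed, from left to right.

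The difference between trained and untrained mice in the THY-Tau22 effect was tested over all 14 libraries, as the change from WT VEH to TAU VEH minus the change from WT to THY-Tau22. Only Sema3b passed in edgeR (1.52% of the set, 0.129% of 17026 genes). On simulated data this test recovered 0% of differences of 0.5 on the log2 scale and 74% of differences of 1. Its difference of log2 fold changes was -2.06 (SE 0.27, adjusted p = 0.0047), the contrast of a 3.12-fold lower level in trained mice and a log2 fold change of 0.46 that did not pass in untrained mice. At an unadjusted p under 0.05 there were 15 of the 66 genes (22.7%), against 7.78% of all genes. Sema3f (-1.74, SE 0.37, adjusted p = 0.10) and Plxnd1 (-0.87, SE 0.19, adjusted p = 0.12) came next and did not pass in edgeR. In DESeq2 both passed beside Sema3b, where 0.725% of the genes it tested did. Without THY-Tau22 replicate 2, the library with a choroid plexus level of 1330 CPM and a rho of -0.67 with GC content, 10 of the 66 genes passed, as did 4.37% of all genes.

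Basal and learning libraries came from different mice, so that signs can be compared between them. Both THY-Tau22 comparisons followed exon GC content in the same direction, however. Spearman's rho over the 66 genes was -0.33 in the basal comparison and -0.67 between TAU VEH and WT VEH. Over all genes it was -0.3 and -0.52. The part of GC content in shared signs was not tested. Of the 27 genes that changed between TAU VEH and WT VEH, 19 (70.4%) had the same sign in the basal comparison, below the 80% (1928 of 2411) of all genes that changed and were tested in both. The 8 with the opposite sign were Sema3b, Plxna1, Plxnb1, Plxnb2, Plxnd1, Efnb2, Epha3 and Ephb6, none of which passed in untrained mice.

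Other genes of the pathway were read from a list of 68 further cues and intracellular effectors, 67 of which were in the tables. In untrained mice 0 of 67 passed, with 1 at an unadjusted p under 0.05. After training 10 changed (14.9%, against 8.4% of all genes), 1 higher and 9 lower. Nck1, an adaptor between receptors and actin, rose from 8.77, 8.22 and 10.4 CPM in WT VEH_HC to 12.9 and 12.7 CPM in WT VEH (0.49, SE 0.11, adjusted p = 0.028). Tiam1, an activator of the GTPase Rac, fell from 149, 187 and 182 CPM to 130 and 131 CPM (-0.41, SE 0.11, adjusted p = 0.049).

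In TAU VEH compared with WT VEH, 14 of 67 changed (20.9%, against 14.4% of all genes), 5 higher and 9 lower. Flrt1, a membrane protein that binds Unc5 receptors, had 21 and 18 CPM in WT VEH against 13.2 and 12.9 CPM in TAU VEH (-0.57, SE 0.11, adjusted p = 0.0061). Rgma, a repulsive guidance molecule that binds neogenin, had 110 and 97 CPM against 67.9 and 74 CPM (-0.55, SE 0.11, adjusted p = 0.0068). Between TAU MOL and TAU VEH 0 of 67 passed, with 6 at an unadjusted p under 0.05. In TAU MOL compared with WT VEH 2 were higher (2.99%, against 0.612% of all genes called higher and 5.63% called in either direction). These were the netrin-G family member Ntng1 (0.39, SE 0.10, adjusted p = 0.041) and the kinase Pak3 (0.27, SE 0.07, adjusted p = 0.039).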

How the data were processed

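RNA of the dorsal hippocampus was made into poly-A libraries without strand information and read from 1 end. Per the submitters' processing notes, CASAVA 1.8.2, TopHat2 2.0.10, Bowtie2 2.1.0, HTSeq 0.5.4p3 and DESeq2 were used with build mm9. The authors deposited raw counts per gene, which were used here, beside normalized signal (counts divided by 1 factor per library), which entered no test. Totals were 28639121 to 37681155 counts per library in the basal and 24693713 to 52180305 in the learning experiment.

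Genes were filtered with filterByExpr and tested with edgeR 4.0.16 (TMM scaling, quasi-likelihood F test, two-sided) in R 4.3.3, with Benjamini-Hochberg adjustment over all genes tested. Calls needed an adjusted p below 0.05 together with a log2 fold change beyond 0.2 in either direction. A single model held the 9 learning libraries, another the 5 basal ones, and a joint model all 14 for the difference between both. CPM were scaled within each table. Fits left 3, 5 and 8 residual degrees of freedom, which limits the precision. Tests were checked on simulated data with 200 changed genes. Of log2 changes of 0.5, edgeR recovered 4% in the basal comparison and 46.5% between TAU VEH and WT VEH. It recovered 0% of them for the difference of the THY-Tau22 effect. Of log2 changes of 1 it recovered 89.5%, 92% and 74%, in the same order. DESeq2 1.42.0, other scalings and filters, no fold change limit, a fit of only the groups compared, a replicate block, a correction for GC content and length (loess, span 0.3), a choroid plexus covariate and leaving out each library were the alternatives. Exons were read from the mm9 annotation and promoters from RefSeq (GRCm38.p6).

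Named were all genes called where there were 12 or fewer, otherwise the 6 largest increases and decreases, the 3 with the lowest p where fewer than 3 were called, the 3 highest levels per family, the lowest levels, and the 2 largest called changes among other pathway genes. Members and lists were chosen with earlier results of these data known.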

Additional observations from a re-analysis of the deposited data

Results flagged for a closer look

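The effect of THY-Tau22 on Sema3b differed between trained and untrained mice. The difference of log2 fold changes was -2.06 (SE 0.27, adjusted p = 0.0047 in edgeR over 17026 genes), with adjusted p from 6.2e-09 to 0.046 over 15 alternatives. Trained THY-Tau22 mice given CSP had 3.91 and 4.64 CPM against 15.4 and 11 CPM in trained WT mice given saline, and untrained THY-Tau22 mice had 6.45 and 5.76 CPM against 4.62, 4.74 and 3.99 CPM in untrained WT mice. Training, injection and experiment differ together between both comparisons and cannot be told apart. Of 14 choroid plexus markers, 7 passed the same test, each with a THY-Tau22 effect that was lower in trained than in untrained mice, and their part in the difference of Sema3b was not tested.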

How the results depend on the processing

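In untrained mice, where edgeR missed most simulated log2 changes of 0.5, no alternative called any of the 66 genes. The 10 genes that changed with training became 17 with every gene of at least 1 count (10.4% of all genes), 6 after the GC content and length correction (3 higher, 3 lower; 4.51%), 0 with the choroid plexus covariate (0%), 4 in a fit of only the groups compared (1.89%) and 1 to 15 when single libraries were left out (0.422% to 16.7%). With the covariate, whose values separated these groups, log2 fold changes of Ephb6 (0.01), Nrp2 (0.14), Robo1 (0.21) and Slit2 (0.06) turned positive. The 27 genes of TAU VEH compared with WT VEH became 5 after the GC correction (2.85% of all genes), 0 with the covariate (0%) and 12 to 16 without single libraries (5.29% to 7.36%), and the median over all 66 genes (log2 fold change) moved to -0.01 with library size alone (0.151 over all genes) and to 0.013 with the GC correction. For TAU MOL compared with TAU VEH, DESeq2 called 2 of the 60 members to which it gave an adjusted p (0.469% of 11928 such genes). The filter of at least 1 count called 5 (0.898% of 25933 genes) and the fit of only these groups 3 (0.368% of 16320 genes). The 9 genes of TAU MOL compared with WT VEH became 14 with that filter (6.13% of all genes) and 0 with the GC correction (0.244%), with the covariate (0.0119%) and without any single library (0 to 0; 0.0116% to 0.0231%), and the median of the 66 genes moved to 0.053 with library size alone (0.123 over all genes). For the difference of the THY-Tau22 effect, DESeq2 and the filter of at least 1 count each called 3 (Plxnd1, Sema3b and Sema3f; 0.725% and 0.309% of all genes), and 1 to 10 were called without single libraries (0.0401% to 4.37%). The median of the 66 genes for it moved to 0.053 with the GC correction. Of the tests of single named genes, 344 kept their direction and side of the threshold, 139 no longer passed, 12 passed newly and 4 changed sign. Causes of these shifts were not tested.

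With the replicate number as a replicate block, 16 genes changed with training (17.8% of all genes, against 8.4% without the block), and the other counts stayed within 1.5 times. Deviations of same-numbered libraries from their group means correlated from -0.16 to 0.24. In groups of 2 both deviations mirror each other, so these values cannot show whether such libraries shared more than a number. Members with few counts, such as Epha1 with 5 to 30 per library, are limited by depth.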

Other observations

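A pair of genes with few counts had values that lay apart in TAU MOL and TAU VEH, and was chosen here after these values were seen. Efna5, an ephrin-A ligand, had 0.612 and 0.604 CPM in TAU VEH and 1.36 and 1.25 CPM in TAU MOL (log2 fold change 1.09, SE 0.24, adjusted p = 0.25 in edgeR). Its exons overlap another annotated entry of the same name, so that its values are uncertain. Sema3a, a secreted semaphorin, had 1.48 and 1.43 CPM in TAU VEH and 3.36 and 2.29 CPM in TAU MOL (0.96, SE 0.26, adjusted p = 0.41). Neither passed here, but Sema3a did under the filter of at least 1 count. For Efna5, the TAU MOL libraries lay near those of WT VEH_HC (1.25, 1.17 and 1.17 CPM) and above those of WT VEH (0.87 and 0.848 CPM). Sema3a had 2.21, 1.45 and 1.95 CPM in WT VEH_HC and 2.22 and 1.8 CPM in WT VEH, close to the lower TAU MOL library.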
